A study of Mus musculus with 12 samples.

Results

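MHC class I and peptide loading genes were followed across bone marrow macrophages in which the fibronectin receptor subunit ITGA5 was neutralized. The members were chosen by name as the rows of the count and FPKM tables for H2-K1, H2-D1, B2m, Tap1, Tap2, Tapbp, Psmb8, Psmb9, Nlrc5 and H2-T23, which gave 10 of 54532 genes in all. All 10 members were detected in all 12 libraries, with 351 to 22640 reads per gene and library, and all 10 entered every test across genes.

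The cells were macrophages grown from the femoral or tibial marrow of C57BL/6J wild-type mice, 2 to 3 months of age, grown in 15% fetal serum with CSF-1, the growth factor that drives macrophage differentiation, first at 12 ng/ml for 24 h and then at 120 ng/ml for 48 h. They were passaged once onto dishes without coating or onto dishes pre-coated with fibronectin, and then held for 24 h with isotype-matched IgG or with an anti-ITGA5 neutralizing antibody, each at 10 µg/ml. This gave 4 groups of 3 libraries, named here by antibody (IgG or anti-ITGA5) and by coating (with or without fibronectin). Every group carried an antibody and came from wild-type cells, so no group is free of antibody and the contrast is antibody exposure in culture, not loss of the gene.

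The paper treats the 3 libraries of a group as biologically independent experiments, whereas the labels name no separate mice. Library totals ranged from 12954342 to 22075432 counted reads, with a median of 18023464.5. Macrophage markers (Csf1r, Adgre1, Cd68, Itgam, Fcgr1 and Mertk) summed to 1432 to 1778 FPKM in a library, while the 5 fibroblast markers summed to at most 0.356 FPKM, the 5 T and NK cell markers to at most 0.0794 and the neutrophil marker Ly6g was at 0 in all libraries. The 6 neutrophil markers summed to 1.82 to 4.43 FPKM and the 5 dendritic cell markers to at most 0.322. The 4 B cell markers were lower under anti-ITGA5, at 2.15 to 2.72 FPKM against 3.08 to 4.58 without fibronectin and at 1.98 to 2.80 against 3.43 to 4.59 with it. In bulk RNA, fewer cells of a type and less RNA per cell cannot be told apart. The summed macrophage markers were themselves lower under anti-ITGA5, at 1432 to 1590.5 FPKM against 1727 to 1767 without fibronectin and at 1610.1 to 1626 against 1747 to 1778 with it. The sum is mostly Cd68. Itgam was at 38.3 to 44.6 FPKM in anti-ITGA5 and 56.8 to 61.6 in IgG without fibronectin and at 47.0 to 50.0 and 59.1 to 60.6 with it, and Mertk was likewise below all IgG libraries in both comparisons. Adgre1 went the other way, at 175.8 to 184.1 FPKM in anti-ITGA5 and 164.9 to 168.7 in IgG with fibronectin and above the IgG libraries in 2 of 3 anti-ITGA5 libraries without it. The part of these marker levels in the results for the members was not tested. Replicate pairs of the group given anti-ITGA5 on uncoated dishes were the least alike, with chi-squares per gene of 10.4 or more, while pairs in the other groups had 2.65 to 7.45. Replicate 3 of anti-ITGA5 with fibronectin also stood apart for the members, as given below. The calls of the members in the antibody comparison on fibronectin are therefore given with and without it.

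MHC class I molecules hold peptides cut from proteins made inside the cell at the cell surface, where CD8 T cells inspect them. Each molecule is a heavy chain joined to B2m, the light chain. Peptides are cut by the proteasome, carried into the endoplasmic reticulum by the TAP transporter and fitted into the heavy chain with the help of tapasin, and macrophages carry this pathway at rest and raise it under interferons through interferon regulatory factors and the class I transactivator NLRC5.

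The members fall into 4 roles. H2-K1 and H2-D1 encode the classical heavy chains, H2-T23 a non-classical heavy chain that is read by inhibitory receptors of NK cells, and B2m the shared light chain. Tap1 and Tap2 encode the paired subunits of the peptide transporter and Tapbp encodes tapasin. Psmb8 and Psmb9 encode inducible catalytic subunits of the immunoproteasome, and Nlrc5 the transactivator of class I genes. On the deposited coordinates of GRCm38, 8 of the members lie on chromosome 17, in and around the major histocompatibility complex, from Tapbp (33915899 to 33929288, plus strand) to H2-T23 (36029773 to 36032855, minus strand). Psmb9 (34181988 to 34187764), Tap1 (34187553 to 34197225), Psmb8 (34197721 to 34201454) and Tap2 (34203527 to 34216321) are neighbours there, while H2-K1 (33996017 to 34000333) and H2-D1 (35262730 to 35267499) stand on either side of them. B2m lies on chromosome 2 (122147686 to 122153083) and Nlrc5 on chromosome 8 (94434356 to 94527272). Tap1 and Psmb9 start on opposite strands and share 212 exonic bases, and the strand setting of the read counting was not given, so reads in that stretch could count for either gene or for neither.

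RefSeq promoter windows (GRCm38.p6) were matched by symbol for 8 of the 10 members, and Tap2 and Nlrc5 had none. RefSeq starts can differ from the gene starts above. The 250 bases before the start are shown for the 3 heavy chain genes, B2m and Tapbp, which are the members called in an antibody comparison below, and for Tap1, a loading gene that was not. The windows of Tapbp and H2-D1 lie inside the deposited spans of the genes, and that of H2-T23 overlaps its span. Capitals mark matches, on either strand, to the palindrome GGGATTCCC (bound by NF-kB factors), TTTCACTTC (the interferon response sequence of class I genes), GAAANNGAA (the core of the interferon-stimulated response element), CCAAT (bound by NF-Y) and TGACG (the CRE half-site), and no match overlapped another.
H2-K1, chr17:34000334-34000583, minus strand: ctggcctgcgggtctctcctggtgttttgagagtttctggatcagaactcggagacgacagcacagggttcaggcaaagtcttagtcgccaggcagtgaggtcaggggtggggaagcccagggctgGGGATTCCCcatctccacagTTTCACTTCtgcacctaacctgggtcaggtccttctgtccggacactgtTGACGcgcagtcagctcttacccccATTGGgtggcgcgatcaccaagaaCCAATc
H2-D1, chr17:35262844-35263093, plus strand: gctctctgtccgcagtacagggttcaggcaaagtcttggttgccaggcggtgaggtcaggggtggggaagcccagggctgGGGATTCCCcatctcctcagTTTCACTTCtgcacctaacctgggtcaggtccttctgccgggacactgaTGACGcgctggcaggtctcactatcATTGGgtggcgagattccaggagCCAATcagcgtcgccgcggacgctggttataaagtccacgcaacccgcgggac
H2-T23, chr17:36032702-36032951, minus strand: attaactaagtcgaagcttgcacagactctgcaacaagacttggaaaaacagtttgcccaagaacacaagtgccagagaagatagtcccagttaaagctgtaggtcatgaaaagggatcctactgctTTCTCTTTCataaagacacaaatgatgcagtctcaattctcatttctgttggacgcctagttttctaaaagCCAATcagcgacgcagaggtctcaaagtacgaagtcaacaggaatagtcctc
B2m, chr2:122147437-122147686, plus strand: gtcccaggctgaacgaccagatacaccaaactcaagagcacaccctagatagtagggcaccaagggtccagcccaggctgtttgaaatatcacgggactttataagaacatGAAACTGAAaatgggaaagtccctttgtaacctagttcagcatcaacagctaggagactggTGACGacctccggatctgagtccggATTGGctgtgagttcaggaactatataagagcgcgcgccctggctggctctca
Tapbp, chr17:33919228-33919477, plus strand: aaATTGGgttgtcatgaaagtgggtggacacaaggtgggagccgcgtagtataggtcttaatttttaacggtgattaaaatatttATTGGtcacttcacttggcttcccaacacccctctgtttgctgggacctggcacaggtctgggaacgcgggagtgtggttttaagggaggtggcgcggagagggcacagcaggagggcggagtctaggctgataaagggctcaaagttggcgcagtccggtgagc
Tap1, chr17:34187306-34187555, plus strand: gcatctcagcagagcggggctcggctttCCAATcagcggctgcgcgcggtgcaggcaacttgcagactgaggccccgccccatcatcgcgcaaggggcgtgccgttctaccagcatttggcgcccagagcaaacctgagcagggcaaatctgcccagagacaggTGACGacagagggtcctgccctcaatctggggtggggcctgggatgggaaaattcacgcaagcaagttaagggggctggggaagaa

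The windows of H2-K1 and H2-D1 held the same 4 motifs in the same order, and their longest identical run was 47 bases. Both held GGGATTCCC, which was in 99 of 32851 windows of this length (0.301%), and TTTCACTTC, which was in 0.402%. B2m and H2-T23 each held 1 match to GAAANNGAA, found in 7.13% of windows. CCAAT was in 33.8% and TGACG in 17.8% of all windows, so that the matches of Tap1 to these shorter sequences are common ones. Tapbp held 2 matches to CCAAT and 0 to the other 4 motifs, so that called members did not share a match that Tap1 lacked. The Tap1 and Psmb9 windows shared 225 bases read in opposite directions, and Psmb8 held no match to any of the 5 motifs.

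FPKM, the read count scaled to gene length and library size, allowed levels to be compared between members. B2m was the most abundant, at 826 to 1311 FPKM over the 12 libraries and rank 18 of all genes by mean FPKM. H2-D1 followed at 269.7 to 424 FPKM (rank 86) and H2-K1 at 175 to 279 FPKM (rank 154). The loading and processing genes lay far lower, with Tapbp at 37.2 to 58.5 FPKM, Psmb8 at 29.8 to 42.0, Tap1 at 9.47 to 14.5, Tap2 at 8.03 to 11.0 and Psmb9 at 6.97 to 8.63. H2-T23 lay between Psmb8 and Tap1, at 13.2 to 36.0 FPKM, and Nlrc5 was lowest at 3.96 to 6.53 (rank 6665). Each step of this order, from B2m through H2-D1, H2-K1, Tapbp, Psmb8, H2-T23, Tap1, Tap2 and Psmb9 to Nlrc5, held within 12 of 12 libraries, except that Tap1 exceeded Tap2 in 11 of 12. Over all libraries the ranges of neighbours in this order overlapped, except for B2m and H2-D1, H2-K1 and Tapbp, and Psmb9 and Nlrc5. H2-T23 was the most variable member, with a highest level 2.73 times its lowest, and Psmb9 the least, at 1.24 times.

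**Figure D1:**
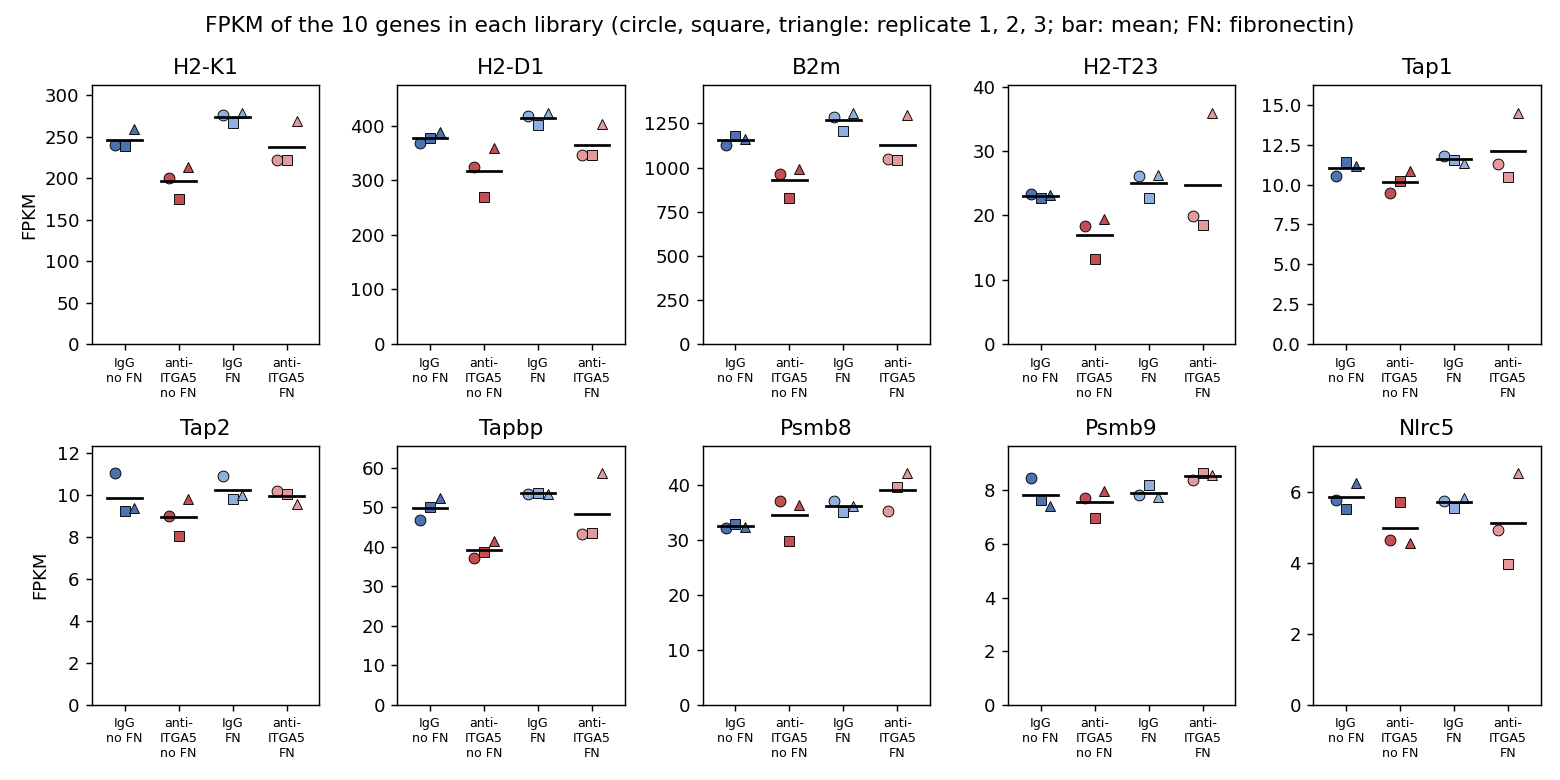
FPKM of each of the 10 genes (vertical axis, from 0) in the 3 libraries of each of the 4 groups; symbols mark replicates and bars the group means. H2-K1, H2-D1, B2m, Tapbp and H2-T23 were below all IgG libraries in all 3 anti-ITGA5 libraries without fibronectin, and on fibronectin replicate 3 of anti-ITGA5 lay apart from the other two for B2m, Tapbp, Tap1 and H2-T23.

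The comparison of anti-ITGA5 with IgG without fibronectin asked how these genes stand when ITGA5 is neutralized on dishes with no added ligand. Both chains of the surface molecule and tapasin were lower under anti-ITGA5: H2-K1, B2m, Tapbp and H2-T23 fell, and the transporter genes Tap1 and Tap2 and the immunoproteasome genes Psmb8 and Psmb9 did not pass the test. The threshold for a call was 0.05 on p-values of the quasi-likelihood test of edgeR, adjusted by Benjamini-Hochberg over all genes tested. By that rule 4 of the 10 members were lower and 0 higher, against 9.79% of 12924 tested genes lower and 11.0% higher. An unadjusted p-value under 0.05 was seen for 6 members and for 33.5% of all genes tested, and DESeq2 and limma also called 0 higher. The median log2 fold change of the members was -0.24, and that of all genes tested was 0.0090.

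H2-K1 was measured at 239.6, 238 and 259 FPKM in the IgG libraries and at 200.4, 175 and 213 FPKM in the anti-ITGA5 libraries. The groups did not overlap, and replicate 2 of anti-ITGA5 was the lowest. H2-K1 fell by 19.9% in the fit (log2 fold change -0.32, SE 0.0706, adjusted p = 0.00922 by edgeR).

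H2-D1, the other classical heavy chain gene, was at 367, 378 and 389 FPKM in IgG and at 324, 269.7 and 358 FPKM in anti-ITGA5. Here too each anti-ITGA5 library was below each IgG library, with a wider spread in anti-ITGA5 (317 ± 44.6 FPKM, SD, n = 3) than in IgG (378 ± 10.9). Its log2 fold change of -0.25 (SE 0.0837) did not pass the threshold by edgeR (adjusted p = 0.0589), and it passed by DESeq2 (adjusted p = 0.0171). Of its 100-base words, 3.59% occur in other transcripts, chiefly of H2-Q1, against 0.957% for H2-K1.

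B2m, the light chain gene, was at 1130.2, 1179.7 and 1164 FPKM in IgG and at 963, 826 and 994 FPKM in anti-ITGA5. The groups did not overlap, and replicate 2 of anti-ITGA5 was again the lowest. B2m fell by 19.6% (log2 fold change -0.31, SE 0.0654, adjusted p = 0.00681 by edgeR).

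Because the heavy and light chains pair one to one in the protein, the ratio of H2-K1 plus H2-D1 to B2m was taken within each library, which does not depend on how libraries are scaled. It was 0.539 ± 0.0174 (SD, n = 3) in IgG, 0.552 ± 0.0199 in anti-ITGA5, and overlapping between them (2-sided exact permutation p = 0.40). The difference of 0.0136 was smaller than the pooled SD of 0.0187.

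H2-T23, the non-classical heavy chain gene, had the largest fold change of the 10. It was at 23.3, 22.7 and 23.1 FPKM in IgG and at 18.3, 13.2 and 19.5 FPKM in anti-ITGA5. The IgG libraries were nearly equal and replicate 2 of anti-ITGA5 lay lowest. The gene fell by 25.7% (log2 fold change -0.43, SE 0.109, adjusted p = 0.0183 by edgeR), and 3.15% of the 100-base words of its transcripts occur in other transcripts, chiefly of Gm7030, so a small share of its reads is uncertain.

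Tapbp, which encodes tapasin, the bridge between the transporter and the empty heavy chain, was at 46.8, 50.0 and 52.3 FPKM in IgG. The anti-ITGA5 libraries were at 37.2, 38.6 and 41.5 FPKM, and here replicate 2 was not the lowest. Tapbp fell by 21.1% (log2 fold change -0.34, SE 0.0612, adjusted p = 0.00306 by edgeR) and was called in 16 of 16 alternative analyses of this comparison, against 14 of 16 for H2-K1, 13 for B2m and 9 for H2-T23. The call of H2-T23 was lost without any 1 of the IgG libraries (adjusted p = 0.0635 to 0.0804 by edgeR), with all 12 libraries in one fit (0.125) and by limma.

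The transporter genes did not pass the test. Tap1 was at 10.5, 11.4 and 11.1 FPKM in IgG and at 9.47, 10.2 and 10.9 FPKM in anti-ITGA5, with overlap between the groups. Its log2 fold change was -0.11 (95% interval -0.26 to 0.04), and that of Tap2, at 9.21 to 11.0 FPKM in IgG and 8.03 to 9.80 in anti-ITGA5, was -0.13 (-0.33 to 0.06). These intervals include no change and also falls of up to 0.26 and 0.33 on the log2 scale, so they do not show that the transporter genes held their level.

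Psmb8 was at 32.1, 32.8 and 32.3 FPKM in IgG and at 37.0, 29.8 and 36.3 FPKM in anti-ITGA5. Replicate 2 was below and the other anti-ITGA5 libraries were above all IgG libraries, and Psmb8 was the member with a positive log2 fold change (0.09, 95% interval -0.07 to 0.25). Psmb9 was at 7.42 to 8.46 FPKM in IgG and 6.97 to 7.97 in anti-ITGA5, a log2 fold change of -0.04 (-0.22 to 0.13).

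Nlrc5 was at 5.77, 5.53 and 6.27 FPKM in IgG and at 4.64, 5.73 and 4.57 FPKM in anti-ITGA5. Replicates 1 and 3 of anti-ITGA5 were below every IgG library, and replicate 2, in which the heavy chain genes were lowest, was not. The log2 fold change of the transactivator was -0.23 (SE 0.0940, adjusted p = 0.107 by edgeR).

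In FPKM, 5 members (H2-K1, H2-D1, B2m, Tapbp and H2-T23) had all 3 anti-ITGA5 libraries below all 3 IgG libraries, a pattern that 19.4% of the genes tested also showed. Each had the smallest 2-sided exact permutation p that 3 libraries against 3 allow, 0.10. Without replicate 2 of anti-ITGA5, the library with the fewest reads, 6 members were called lower, against 14.0% of genes. They were H2-K1, H2-D1, B2m, Tapbp, Nlrc5 and H2-T23. Psmb8 was called higher with a log2 fold change of 0.18 (adjusted p = 0.0116 by edgeR), as were 1992 of 13161 genes. That replicate was the lowest of its group for Psmb8 and the highest for Nlrc5. Leaving it out therefore raises the value of Psmb8 and lowers that of Nlrc5 by construction. Leaving out IgG replicate 3 left 2 members called, B2m and Tapbp.

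**Figure D2:**
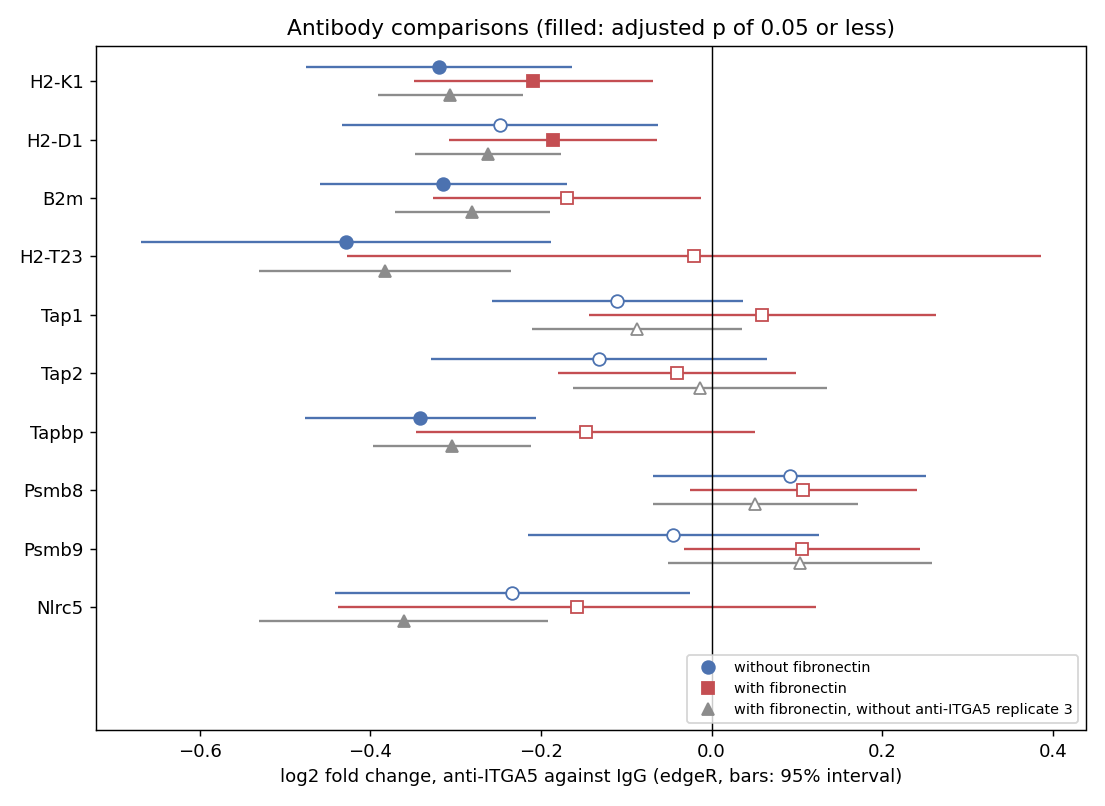
Log2 fold change of each gene, anti-ITGA5 against IgG (horizontal axis), with 95% intervals; circles are the comparison without fibronectin, squares that with fibronectin and triangles that with fibronectin when replicate 3 of anti-ITGA5 is left out. Filled symbols passed an adjusted p-value of 0.05, which was the case for 4 genes without fibronectin, 2 with it and 6 with it when that replicate is left out.

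On fibronectin, the ligand of ITGA5, the same antibody comparison called fewer members, a difference between coatings that is tested further on. The classical heavy chain genes fell, H2-K1 by 13.5% (log2 fold change -0.21, SE 0.0645, adjusted p = 0.0296 by edgeR) and H2-D1 by 12.1% (-0.19, SE 0.0560, adjusted p = 0.0268). Each was called in 7 of 16 alternative analyses. The other 8 members did not pass the test, so 2 of 10 were lower and 0 higher, against 13.2% of 12916 genes lower and 14.4% higher; 3 members and 38.7% of all genes had an unadjusted p-value under 0.05, and DESeq2 and limma also called 0 higher. The members' median log2 fold change was -0.09, and that of all genes tested was -0.0038.

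H2-K1 was at 277, 267 and 279 FPKM in the IgG libraries with fibronectin and at 222, 222 and 269 FPKM in anti-ITGA5. B2m was at 1285, 1209 and 1311 FPKM in IgG and at 1049, 1041 and 1298 FPKM in anti-ITGA5. For both genes, replicates 1 and 2 of anti-ITGA5 were nearly equal and below all IgG libraries, and replicate 3 lay within the IgG range.

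H2-D1 followed H2-K1, with 418, 401 and 424 FPKM in IgG and 346, 345 and 402 FPKM in anti-ITGA5. Tapbp was at 53.4, 53.5 and 53.4 FPKM in IgG and at 43.2, 43.4 and 58.5 FPKM in anti-ITGA5, so that replicate 3 passed above the IgG libraries for tapasin. No member had all 3 anti-ITGA5 libraries below all IgG libraries, which 20.6% of genes had. The log2 fold changes of B2m and Tapbp over all 3 replicates were -0.17 (adjusted p = 0.101 by edgeR) and -0.15 (adjusted p = 0.260). With the replicate number as a block, B2m and Tapbp were called lower (adjusted p = 0.000939 and 0.0225 by edgeR).

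The pattern was most marked for H2-T23, at 26.1, 22.6 and 26.2 FPKM in IgG and at 19.9, 18.4 and 36.0 FPKM in anti-ITGA5. Its mean was almost the same in both groups, with a log2 fold change of -0.02 and a 95% interval from -0.43 to 0.39. Tap1 was at 11.3, 10.5 and 14.5 FPKM and Nlrc5 at 4.93, 3.96 and 6.53 FPKM in these anti-ITGA5 libraries, again with replicate 3 highest. In IgG with fibronectin Tap1 was at 11.4 to 11.8 FPKM and Nlrc5 at 5.54 to 5.85, and the log2 fold changes were 0.06 for Tap1 (95% interval -0.14 to 0.26) and -0.16 for Nlrc5 (-0.44 to 0.12).

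Tap2 and Psmb9 did not follow replicate 3. Tap2 was at 10.2, 10.1 and 9.58 FPKM in anti-ITGA5, with replicate 3 the lowest, and its log2 fold change was -0.04 (95% interval -0.18 to 0.10). Psmb9 was at 8.41, 8.63 and 8.56 FPKM against 7.83, 8.19 and 7.74 in IgG, above every IgG library, as 21.7% of the genes tested were, with a log2 fold change of 0.11 (-0.03 to 0.24, adjusted p = 0.244 by edgeR). Psmb8 was at 35.2, 39.6 and 42.0 FPKM in anti-ITGA5 and at 35.1 to 37.1 in IgG, overlapping, with a log2 fold change of 0.11 (-0.02 to 0.24). Psmb8 was called higher without replicate 1 of anti-ITGA5 (0.18, adjusted p = 0.0423 by edgeR). That library was the lowest of its group for Psmb8, so leaving it out raises the value by construction.

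Replicate 3 of anti-ITGA5 with fibronectin was the highest of its group for 8 of the 10 members, against 36.0% of all genes. Replicate 3 of anti-ITGA5 without fibronectin was also the highest of its group for 8 of 10, against 31.3% of genes, while staying below the IgG libraries for H2-K1, H2-D1, B2m, Tapbp and H2-T23. With replicate 3 of anti-ITGA5 with fibronectin left out, H2-K1, H2-D1, B2m, Tapbp, Nlrc5 and H2-T23 were called lower, 6 of 10 members against 14.4% of genes, with log2 fold changes of -0.31, -0.26, -0.28, -0.30, -0.36 and -0.38 (adjusted p of 0.00238 or less by edgeR). Since that library was the highest of its group for these 6, leaving it out lowers their fold changes by construction. With replicate 1 or replicate 2 of anti-ITGA5 left out in its place, 0 members were called lower by edgeR, as was the case without IgG replicate 1 or 3, and 0 by limma on log2(FPKM + 1) with all 6 libraries; DESeq2 with all 6 called 2.

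The levels of the interferon-stimulated genes, which share regulators with class I, moved with these libraries. For the 21 genes of that list, the summed level was 299, 279.7 and 487 FPKM in anti-ITGA5 with fibronectin and 401 to 441 FPKM in IgG with fibronectin. All 21 genes were highest of the group in replicate 3, in which their median log2 level was 0.84 above the mean of IgG without fibronectin, against 0.58 and 0.84 below it in replicates 1 and 2. In anti-ITGA5 without fibronectin all 21 were highest in replicate 3 as well, at a summed 316 FPKM against 272 and 235, below the 391 to 422 FPKM of IgG. In the IgG groups replicate 3 was highest for 14 of the 21 genes without fibronectin and for 13 with it. The part of the interferon-stimulated program in the class I values was not tested.

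**Figure D3:**
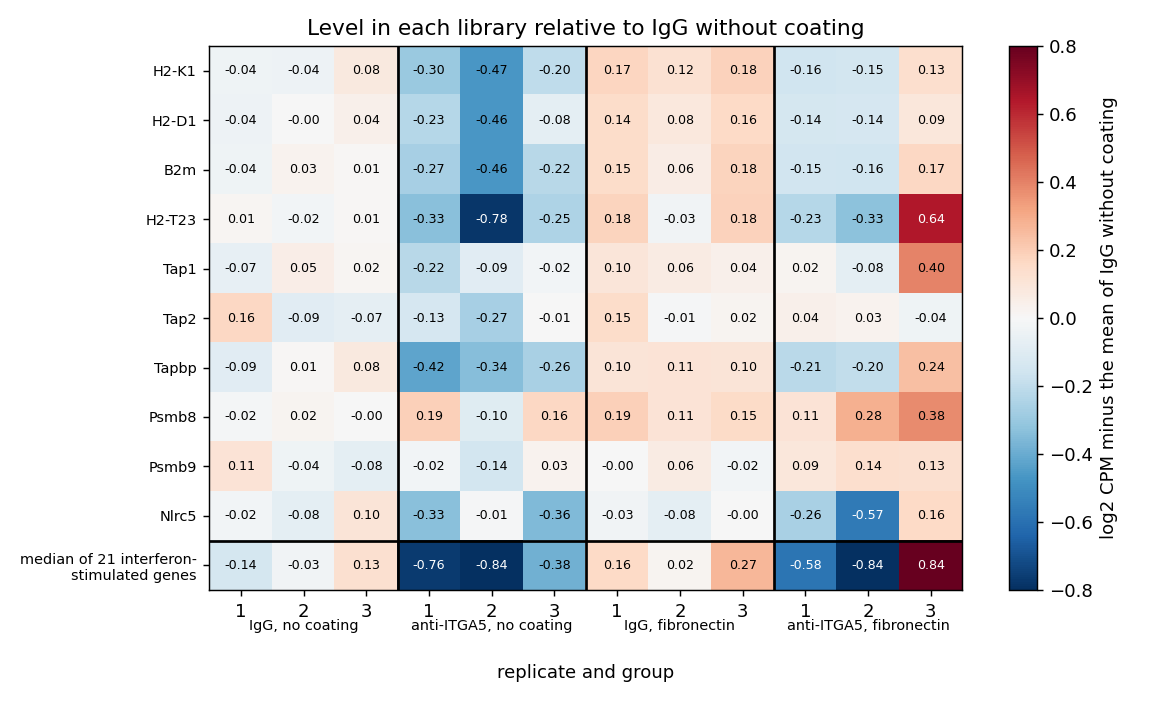
Log2 CPM (read counts scaled to library size by TMM) of each gene in each library, minus the gene's mean over the 3 libraries of IgG without fibronectin; the last line gives the median over 21 interferon-stimulated genes. Blue cells are lower and red cells higher; replicate 3 of anti-ITGA5 with fibronectin is the only red anti-ITGA5 library for H2-K1, H2-D1, B2m, H2-T23 and Tapbp.

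Fibronectin was compared with no coating within each antibody to see how the ligand alone stands in these genes. In IgG, 9 of the 10 members had positive log2 fold changes, the exception being Nlrc5 at -0.04, and 0 were called, against 0.449% of 12925 genes in either direction. At an unadjusted p-value under 0.05 there were 5 members (H2-K1, H2-D1, B2m, Tapbp and Psmb8), against 1266 genes in all. Their log2 fold changes ran from 0.10 for Tapbp to 0.15 for H2-K1 (SE 0.0394, adjusted p = 0.117 by edgeR). DESeq2 called 3 members higher, H2-K1 (adjusted p = 0.00626), H2-D1 (0.0156) and B2m (0.0236). It gave no adjusted p-value for Tap1, Tap2, Psmb9 and Nlrc5, while limma called 0. With the replicate number as a block, edgeR called 4 higher, H2-K1 (adjusted p = 0.000725), H2-D1 (0.00606), B2m (0.00983) and Psmb8 (0.0351).

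The 5 members were above all uncoated IgG libraries in all 3 coated ones, which 8.8% of genes also were; Psmb8, for instance, was at 37.1, 35.1 and 36.1 FPKM on fibronectin and at 32.1 to 32.8 without it. H2-K1 was at 267 to 279 FPKM on fibronectin and at 238 to 259 without it. The uncoated and coated IgG libraries also serve as the controls of the antibody comparisons, so these results and those of the antibody are not independent.

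In anti-ITGA5, all 10 members had positive log2 fold changes on fibronectin and 0 were called by edgeR, DESeq2 or limma. No gene at all was called by edgeR in this comparison (0.0% of 12863), DESeq2 called 3 higher and 2 lower, and 461 genes had an unadjusted p-value under 0.05, among them the 4 members H2-K1 (0.26), B2m (0.27), Tapbp (0.29) and Psmb9 (0.16), with the log2 fold change in parentheses. The same 4 were above all uncoated anti-ITGA5 libraries in FPKM, as were 5.79% of genes. H2-T23 had the largest log2 fold change, 0.52, with a 95% interval from -0.01 to 1.05. With each library left out, the value of H2-T23 ran from 0.15 to 0.70. That of H2-K1 then ran from 0.16 to 0.32, B2m from 0.15 to 0.33, Tapbp from 0.13 to 0.37 and Psmb9 from 0.12 to 0.20.

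The interaction of antibody and coating asked directly whether the antibody difference depended on fibronectin. It was positive for all 10 members, meaning a smaller fall or a larger rise on fibronectin, with a median of 0.13 on the log2 scale. None of the members was called by edgeR, DESeq2 or limma (adjusted p = 0.9997 for each by edgeR, and 0 had an unadjusted p-value under 0.05), and 3 of 13455 genes (0.0223%) were. With every gene of at least 1 count kept, edgeR called H2-T23 (0.41, adjusted p = 0.0163). In the main fit the interaction of H2-T23 was also 0.41, and it ran from 0.048 to 0.58 with each library left out. The intervals were wide, from -0.12 to 0.34 for H2-K1, from -0.09 to 0.38 for B2m and from -0.17 to 0.98 for H2-T23. A difference between coatings was thus not shown for the other 9 members, and for H2-T23 the call rested on that filter.

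Within a library, the immunoproteasome subunits were set against the constitutive subunits that they replace. The Psmb8 share of Psmb8 and Psmb5 without fibronectin was 21.9 ± 1.05% (SD, n = 3) in IgG and 23.4 ± 0.172% in anti-ITGA5, without overlap (exact permutation p = 0.10, the smallest possible). With fibronectin it was 23.6 ± 0.450% and 24.4 ± 1.53%, with overlap. The Psmb9 share of Psmb9 and Psmb6 was 8.10 ± 0.778% and 7.57 ± 0.0774% without fibronectin, and 7.46 ± 0.226% and 8.19 ± 0.635% with it, where the groups did not overlap.

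Psmb10, the other inducible subunit and not a member, was set against Psmb7. Its share of Psmb10 and Psmb7 without fibronectin was 58.8%, 56.8% and 58.3% in IgG and 49.4%, 50.2% and 52.4% in anti-ITGA5, a difference of -7.27 percentage points that exceeded the pooled SD of 1.35 (exact permutation p = 0.10). With fibronectin the shares were 56.4%, 54.8% and 57.5% in IgG and 53.8%, 52.6% and 56.9% in anti-ITGA5, and replicate 3 again lay with IgG.

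**Figure D4:**
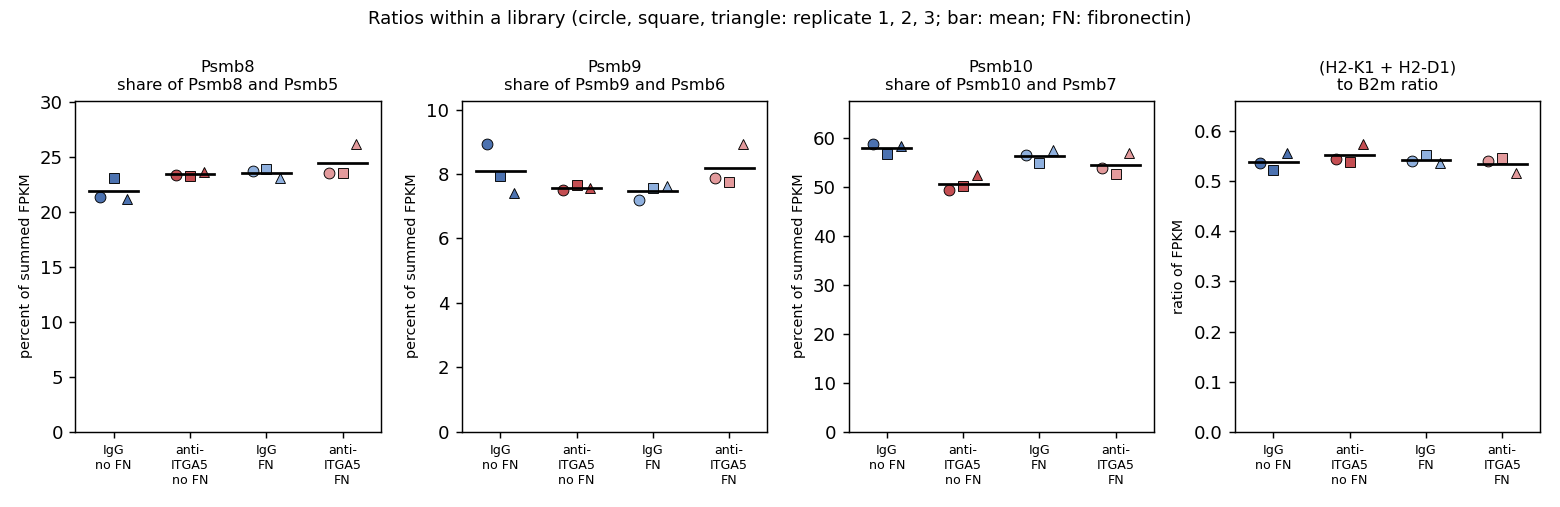
Shares of the inducible subunit in the summed FPKM of the inducible and the constitutive subunit, in percent, and the ratio of H2-K1 plus H2-D1 to B2m, in each library; symbols mark replicates and bars the group means. The Psmb10 share was 49.4% to 52.4% in anti-ITGA5 without fibronectin and 56.8% to 58.8% in IgG, and the ratio stayed between 0.517 and 0.575 in all 12 libraries.

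The wider class I pathway was read from 7 lists of genes that are not members, of which up to 4 genes each are named by the lowest adjusted p-value in either antibody comparison. The counts stand beside the shares of all genes given above, 9.79% lower and 11.0% higher without fibronectin and 13.2% and 14.4% with it. Of the other class I heavy chains, 9 of 16 were tested, and near-identical copies among them make their counts uncertain. Without fibronectin edgeR called 0, with 4 at an unadjusted p-value under 0.05, and DESeq2 called 0 lower and 0 higher, and with fibronectin 0 were lower and 3 higher. The 3 were H2-Q4 (log2 fold change 0.55, adjusted p = 0.00450 by edgeR), H2-M3 (0.28, adjusted p = 0.0116) and Cd1d1, which encodes a lipid-presenting molecule (0.47, adjusted p = 0.00285). These heavy chain genes rose in the comparison in which H2-K1 and H2-D1 were called lower. The calls of H2-K1 and H2-D1 held in 7 of 16 alternative analyses each, and both genes overlapped between the groups in FPKM. The call of H2-M3 was lost without IgG replicate 3. Without fibronectin the values of the 3 higher genes were 0.30, 0.18 and 0.28. The median of the tested genes was 0.18 without fibronectin, 0.02 when IgG replicate 1 was left out and 0.05 by DESeq2, which tested 11, and it was 0.28 with fibronectin and 0.07 when replicate 3 of anti-ITGA5 was left out. H2-T22 had values of -0.17 without and -0.03 with fibronectin.

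Among 11 genes of endoplasmic reticulum chaperones and of trimming enzymes, 0 were lower and 1 higher without fibronectin and 1 was lower and 6 higher with it. Hsp90b1, a chaperone, rose in both comparisons (0.20, adjusted p = 0.0235, and 0.24, adjusted p = 0.000771, by edgeR), and the call without fibronectin was lost without any 1 library except replicate 2 of anti-ITGA5, when 2 of the list were lower and 4 higher. With fibronectin 3 were higher without replicate 1 of anti-ITGA5. Calr, the calreticulin gene of the loading complex, and Hspa5 rose with fibronectin (0.16 and 0.17), and Lnpep, which trims peptides, fell by 0.20 on the log2 scale. Tapasin fell without fibronectin while the calreticulin of the same complex had a value of 0.15 (adjusted p = 0.110).

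Of 11 proteasome and activator genes, 2 were lower and 0 higher without fibronectin and 1 was lower and 1 higher with it. Psme4, an activator subunit, fell in both (-0.36, adjusted p = 0.00123, and -0.33, adjusted p = 0.000120, by edgeR). Psmb10 fell without fibronectin (-0.26, adjusted p = 0.0352) and had a value of 0.03 with it, Psmb7 rose with fibronectin (0.14, adjusted p = 0.0472), and Psme3 had values of 0.06 and 0.12. The call of Psmb7 was lost by DESeq2 and without any 1 library except replicate 3 of anti-ITGA5, and that of Psmb10 by DESeq2 and without IgG replicate 1, IgG replicate 3 or anti-ITGA5 replicate 1.

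Of the genes for class I transcription factors, 17 of 18 were tested, and in each comparison 4 were lower and 2 higher. Without fibronectin the named genes fell: Irf9 (-0.61, adjusted p = 0.00239 by edgeR) and Stat2 (-0.39, adjusted p = 0.00131), which encode parts of the interferon-activated complex ISGF3, Irf8 (-0.34, adjusted p = 0.00298), a macrophage lineage factor, and Nfya (-0.26, adjusted p = 0.00724), a subunit of the CCAAT-binding factor. With fibronectin Irf9 (-0.39, adjusted p = 0.0424), Irf8 (-0.30, adjusted p = 0.00200) and Nfya (-0.28, adjusted p = 0.000419) fell, and Stat2 had a value of -0.14 (adjusted p = 0.464). The 2 higher genes of each comparison, named after their values were seen, were the other subunits of the CCAAT-binding factor. They were Nfyb (0.42, adjusted p = 0.00275, and 0.36, adjusted p = 0.00459, by edgeR) and Nfyc (0.24 and 0.23). The calls of Nfyc were lost by DESeq2, and without fibronectin also with the replicate block. In each comparison, 1 of the 6 fits with 1 library left out kept the call of Nfyc. The call of Irf9 with fibronectin was lost by DESeq2 and without any 1 library except replicate 3 of anti-ITGA5, and that of Nfya without fibronectin was lost without IgG replicate 1. Of the list, 7 were lower without replicate 2 of anti-ITGA5 in the comparison without fibronectin and 7 without replicate 3 in that with it. Nlrc5, the member that acts beside these factors, was not called without fibronectin (-0.23, adjusted p = 0.107 by edgeR). It was called lower in 2 of 16 alternative analyses, among them that with every gene of at least 1 count kept (-0.25, adjusted p = 0.0267 by edgeR).

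Of 7 tested interferon receptor and kinase genes, 4 were lower and 0 higher without fibronectin, and 2 were lower and 1 higher with it. Ifnar1, a chain of the type I interferon receptor, fell without fibronectin (-0.36, adjusted p = 0.000419 by edgeR) and with it (-0.35, adjusted p = 0.000122), as did Ifngr1 of the interferon gamma receptor (-0.23 and -0.26). Jak1 fell without fibronectin (-0.16) and Tyk2 rose with it (0.20). Without fibronectin the 4 lower calls became 1, that of Ifnar1, without any 1 of the IgG libraries or replicate 3 of anti-ITGA5, and 2 without replicate 1 of anti-ITGA5. The call of Tyk2 was lost without IgG replicate 3.

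Of 21 interferon-stimulated genes, 14 were lower and 0 higher without fibronectin, with a median log2 fold change of -0.69, and 9 to 16 were lower when any 1 library was left out. Irf7 (-1.67), Usp18 (-1.43), Oasl2 (-1.41) and Mx1 (-1.39) led them. With fibronectin edgeR and DESeq2 called 0 of the 21, with a median of -0.23 by edgeR. By edgeR 2 had an unadjusted p-value under 0.05, a share below that of all genes, and 7 were lower with the replicate number as a block. Without replicate 3 of anti-ITGA5, edgeR called 18 lower, against 14.4% of genes, with a median of -0.88. All 21 were highest of their group in that library, so leaving it out lowers their fold changes by construction. Without replicate 1 or replicate 2 edgeR called 0, with medians of 0.01 and 0.05.

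MHC class II genes, which present peptides from ingested material, were set beside class I. Of 7 tested, 2 were lower under anti-ITGA5 without fibronectin, H2-DMb1 (-0.25, adjusted p = 0.0481 by edgeR) and H2-DMb2 (-1.32, adjusted p = 0.0233, at 0.624 FPKM in IgG and 0.247 in anti-ITGA5). DESeq2 called neither, and 0 of the list were called without any 1 library, except H2-DMb2 without replicate 2 of anti-ITGA5. With fibronectin edgeR called 0, with 1 at an unadjusted p-value under 0.05, and DESeq2 called 0 lower and 0 higher. On fibronectin in IgG 4 were higher, with a median log2 fold change of 0.86, among them Cd74 (1.16, adjusted p = 0.000336) and H2-Ab1 (0.86, adjusted p = 0.0122), where the class I members had a median of 0.10 and 0 calls. Without replicate 1 of either group 2 were higher, Cd74 and H2-Aa, and DESeq2 gave no adjusted p-value for the class II genes.

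**Figure D5:**
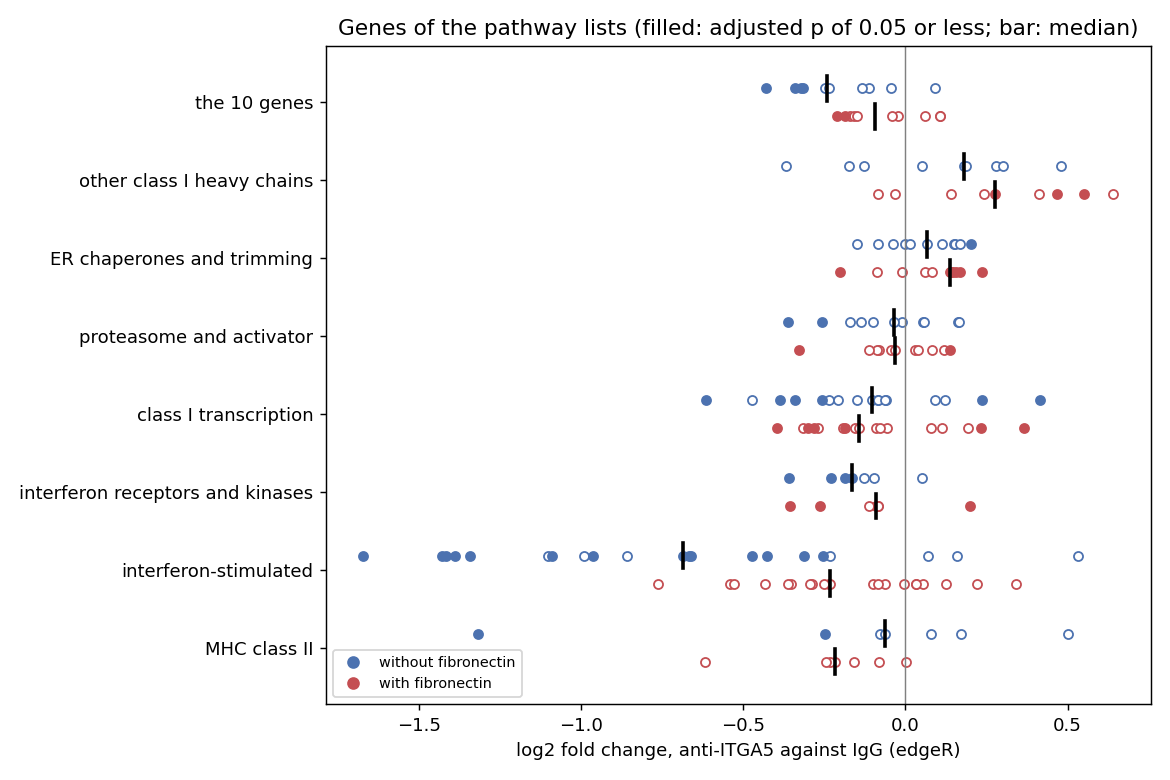
Log2 fold change, anti-ITGA5 against IgG (horizontal axis), of the 10 genes and of each tested gene of 7 pathway lists, without fibronectin (blue) and with it (red); filled circles passed an adjusted p-value of 0.05 and bars mark medians. The interferon-stimulated genes reach -1.67 without fibronectin, and the other class I heavy chains have medians of 0.18 and 0.28.

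Some members followed each other closely from library to library and others did not. Over the 12 libraries, which share groups and scaling, the log2 CPM of H2-K1 followed that of B2m (Pearson r = 0.98) and H2-D1 (0.98), and Tapbp followed H2-K1 (0.93) and B2m (0.93). With H2-K1, r was 0.88 for H2-T23, 0.65 for Tap1, 0.60 for Tap2, 0.49 for Nlrc5, 0.34 for Psmb8 and 0.31 for Psmb9. The lowest of all pairs was that of Psmb9 and Nlrc5 (-0.30), and Tap1 and Tap2 had 0.21. These values describe 12 libraries of 4 groups and carry no test.

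Among the 5 other genes whose log2 CPM was most like the members' mean standardised level, of 11676 compared over 12 libraries, were Ms4a7 (Pearson r = 0.97), Daxx (0.95), Psme1 (0.94) and H2-T22 (0.94). Ms4a7 encodes a membrane protein of macrophages and Psme1 a subunit of the proteasome activator PA28. Daxx lies next to Tapbp, at 33909414 to 33915589 on chromosome 17. Ms4a7 was at 17.2 to 17.9 FPKM in IgG and 13.4 to 17.7 in anti-ITGA5 without fibronectin, and at 18.6 to 19.9 and 16.9 to 20.7 with it.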

How the data were processed

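RNA-seq was analysed in 12 libraries of bone marrow macrophages, in 4 groups of 3 taken from the sample labels. The authors made poly(A)-selected libraries sequenced as paired ends, and the submitters' processing notes name TopHat2 2.0.9, HTSeq 0.6.1 and Cufflinks 2.1.1 with GRCm38. The annotation release and strand setting are not given in the sources used here. The deposited tables hold raw read counts per gene and the authors' FPKM values, which are counts scaled to gene length and library size. The total counts were 12954342 to 22075432 per library.

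Counts were tested with edgeR 4.0.16 (quasi-likelihood, TMM scaling, filterByExpr with a minimum count of 10 and total of 15) in R 4.3.3, on the 6 libraries of each comparison or all 12 for the interaction. P-values were adjusted by Benjamini-Hochberg over all genes tested and called at 0.05. FPKM and ratios were compared by 2-sided exact permutation tests. The scripts were tested on simulated data. Alternatives were DESeq2 1.42.0, limma 3.58.1 on log2(FPKM + 1) or log2(FPKM + 0.1), other scalings and filters, a replicate block, and leaving out each library. Named genes were the 10 members, up to 4 genes per pathway list by the lowest adjusted p-value in either antibody comparison, and the 5 genes most correlated with the members' mean, of which 1 is not reported here. The members and lists were chosen with earlier results of these data known. Replicates are taken as independent cultures from the paper, and p-values measure the spread between these libraries.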

Additional observations from a re-analysis of the deposited data

How the results depend on the processing

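Of the members called in the antibody comparisons, H2-K1, B2m, Tapbp and H2-T23 without fibronectin and H2-K1 and H2-D1 with it had negative log2 fold changes under every alternative run, while calls were gained and lost, and the cause was not tested. With fibronectin, 0 members were called lower with total counts in place of TMM, with all 12 libraries in one fit, and by limma with either pseudocount or without a filter, and 4 when every gene with at least 1 count was kept. Leaving out each library gave 0 to 6 lower and 0 to 1 higher, 1113 to 1907 genes lower, 0 to 7 members with FPKM all below and 1 to 2 all above. Limma without a filter called 1025 genes higher and 846 lower. Without fibronectin, limma called 2 members lower with either pseudocount and 1 without a filter, where it called 684 genes higher and 536 lower. Leaving out each library gave 2 to 6 members lower, 0 to 1 higher, 0 to 1 with FPKM all above, 627 to 1842 genes lower and 846 to 1992 higher.

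For fibronectin in IgG, members called higher were 3 by DESeq2, 3 with every gene of at least 1 count and 0 to 1 with each library left out. Genes higher and lower were 100 and 41 by DESeq2, 175 and 66 with every gene of at least 1 count, 10 and 1 with all 12 libraries, 5 and 2 by limma, 5 and 0 with the smaller pseudocount, 8 and 9 without a filter, and 6 to 77 and 3 to 24 with each library left out. In anti-ITGA5 they were 3 and 2 by DESeq2, 113 and 214 with every gene of at least 1 count (4 members higher), 1 and 1 with all 12 libraries, 2 and 1 with both variable libraries left out, an alternative chosen after seeing the data, and 0 to 4 and 0 to 4 with each library left out, when 4 to 8 members had FPKM all above. For the interaction, 1 gene was higher by DESeq2, 33 higher and 32 lower with every gene of at least 1 count (1 member, H2-T23, higher), 3 higher by limma without a filter, 1 lower by limma with either pseudocount, and 0 to 3 higher and 1 to 4 lower with each library left out.

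Directions turned only for results that were not called. With total counts, H2-T23 was at 0.021 and Tap2 at 0.00030 for the antibody with fibronectin, and Psmb9 at -0.0091 for fibronectin in IgG. With both variable libraries left out, Nlrc5 was at -0.061 for fibronectin in anti-ITGA5, and the interaction was -0.035 for B2m, -0.11 for H2-D1, -0.056 for H2-K1, -0.093 for H2-T23, -0.012 for Nlrc5 and -0.12 for Psmb8. Those libraries were the lowest and the highest of their groups for H2-K1, H2-D1, B2m, H2-T23 and Psmb8, so leaving both out lowers the interaction of these by construction. With each library left out, the antibody with fibronectin gave -0.38 to 0.15 for H2-T23, -0.087 to 0.15 for Tap1 and -0.078 to 0.0025 for Tap2, and without fibronectin -0.086 to 0.011 for Psmb9. Fibronectin in IgG gave -0.082 to 0.012 for Nlrc5 and -0.025 to 0.068 for Psmb9, fibronectin in anti-ITGA5 -0.18 to 0.19 for Nlrc5, and the interaction -0.035 to 0.16 for H2-D1, -0.12 to 0.24 for Nlrc5 and -0.067 to 0.084 for Psmb8.

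With counts in place of FPKM, which changes the unit because the heavy chain genes are longer than B2m and Psmb9 differs in length from Psmb6, the heavy to light chain ratio differed by 0.0407 for the antibody without fibronectin, -0.0256 with it and -0.0529 for fibronectin in anti-ITGA5, and the Psmb9 share by 1.23 percentage points for the antibody with fibronectin. Replicate numbers were not taken to pair the samples, since the labels give no shared source and same-numbered libraries had correlations of -0.02 to 0.14, not all above 0.1. As a hint from the data, in 3 of 4 comparisons every same-numbered pair (0.03 to 0.14) had a higher correlation than every other pair (at most 0.0012), which was not so for fibronectin in anti-ITGA5. With the replicate block, 4 members were called lower for the antibody with fibronectin and 4 higher for fibronectin in IgG, where 283 genes were higher and 133 lower, and 2 genes were lower for fibronectin in anti-ITGA5. As to depth, each member had at least 351 reads in every library.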
